A study of Mus musculus with 12 samples.

Results

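The 10 genes described here take part in lipoprotein metabolism, lipid efflux or their control. They include the apolipoprotein genes Apoe, Apoc1, Apoc2, Apoc4 and Clu and the lipase gene Lpl. The others are the efflux transporter genes Abca1 and Abcg1 and the liver X receptor genes Nr1h2 and Nr1h3. All 10 were taken by symbol from a table of 21125 genes and were among the 10634 genes tested. The members were chosen by function with earlier results of these data known, namely the lower FPKM of Apoc1 and Apoc2 in Ppargc1a-deficient microglia without toxin and the high level of Apoe. Values of the 10 genes in that contrast are therefore given as a description, with no p-value or confidence interval. The same holds for Apoc1 and Apoc2 in any comparison that reuses its profiles.

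The data are RNA-seq values of microglia, which are macrophages that live in the brain; they came from mouse midbrain and were purified on a flow cytometer. Ppargc1a encodes PGC-1alpha, a coactivator of nuclear receptors. Control mice (WT) had the genotype Ppargc1a FF, and deficient mice (KO) had the genotype Ppargc1a FF CreER. Mice of both genotypes were given PBS or MPTP, a toxin that kills dopaminergic neurons, so the groups are WT PBS, WT MPTP, KO PBS and KO MPTP. All 4 groups, controls included, are labelled as 6 weeks after tamoxifen, the drug that activates CreER. The sources used here name neither the promoter that drives CreER nor the age of the mice or the dose of MPTP. In sorted bulk RNA, fewer cells of a type and less RNA per cell cannot be told apart.

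The labels number 3 samples in each group, but 6 of the 12 columns are arithmetic copies of other columns. The third column of each group is 0.99 times the mean of the other two plus 0.1, WT MPTP 2 is 1.02 times WT MPTP 1, and KO MPTP 1 is 1.02 times KO PBS 2. Values below are therefore given for the 6 separate profiles, always in 1 order: first WT PBS 1, WT PBS 2 and WT MPTP 1, then KO PBS 1, KO PBS 2 and lastly KO MPTP 2. The profile called KO PBS 2 stands under a PBS and an MPTP label, so its genotype is KO either way but its treatment is uncertain. Of the 10 genes, Nr1h2 alone had a row that left these relations: row 11 was deposited as 5.78 FPKM in KO MPTP 1, where the relation gives 3.75. Whether the samples of 1 group are different mice is not stated, so a p-value here reflects spread among profiles and that spread may be technical. The targeted gene Ppargc1a, not among the 10, also has a row that leaves these relations. It was deposited at 5.70, 6.21 and 5.60 FPKM in the WT PBS columns and 2.72, 2.83 and 2.95 in the WT MPTP columns. In KO it was at 0.33, 0.12 and 0.42 with PBS and 0.22, 0.42 and 0.51 with MPTP.

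Cells rid themselves of cholesterol by handing it to lipid-poor apolipoproteins. The transporters ABCA1 and ABCG1 move cholesterol and phospholipid across the plasma membrane, and apolipoprotein E is the main acceptor made in the brain, chiefly by astrocytes and by microglia. Cholesterol derivatives called oxysterols activate the liver X receptors LXR-beta (Nr1h2) and LXR-alpha (Nr1h3), which pair with retinoid X receptors and switch on Abca1, Abcg1, Apoe and the C apolipoprotein genes in macrophages.

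The label of the cells was checked against marker lists. All 8 macrophage markers were measured at 1 FPKM or more, among them Csf1r at 110 to 121 FPKM and Cd68 at 450 to 504. Of 9 microglia markers, 4 lay under 1 FPKM in every profile: Cx3cr1 at 0.04 to 0.06, P2ry12 at 0.15 to 0.26, Siglech at 0.01 to 0.05 and Sall1 at 0. Thus several defining microglia markers are absent or nearly so. Of the astrocyte list, 7 of 10 genes were listed and 5 of those lay under 1 FPKM in every profile, with Gfap at 0 to 0.04, Slc1a3 at 0 to 0.01 and Fgfr3 at 0. Aldoc, the astrocyte marker with the highest value, was at 74.1 to 87.2 FPKM. The 3 hepatocyte and adipocyte genes listed summed to at most 0.09 FPKM in any profile.

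**Figure D1:**
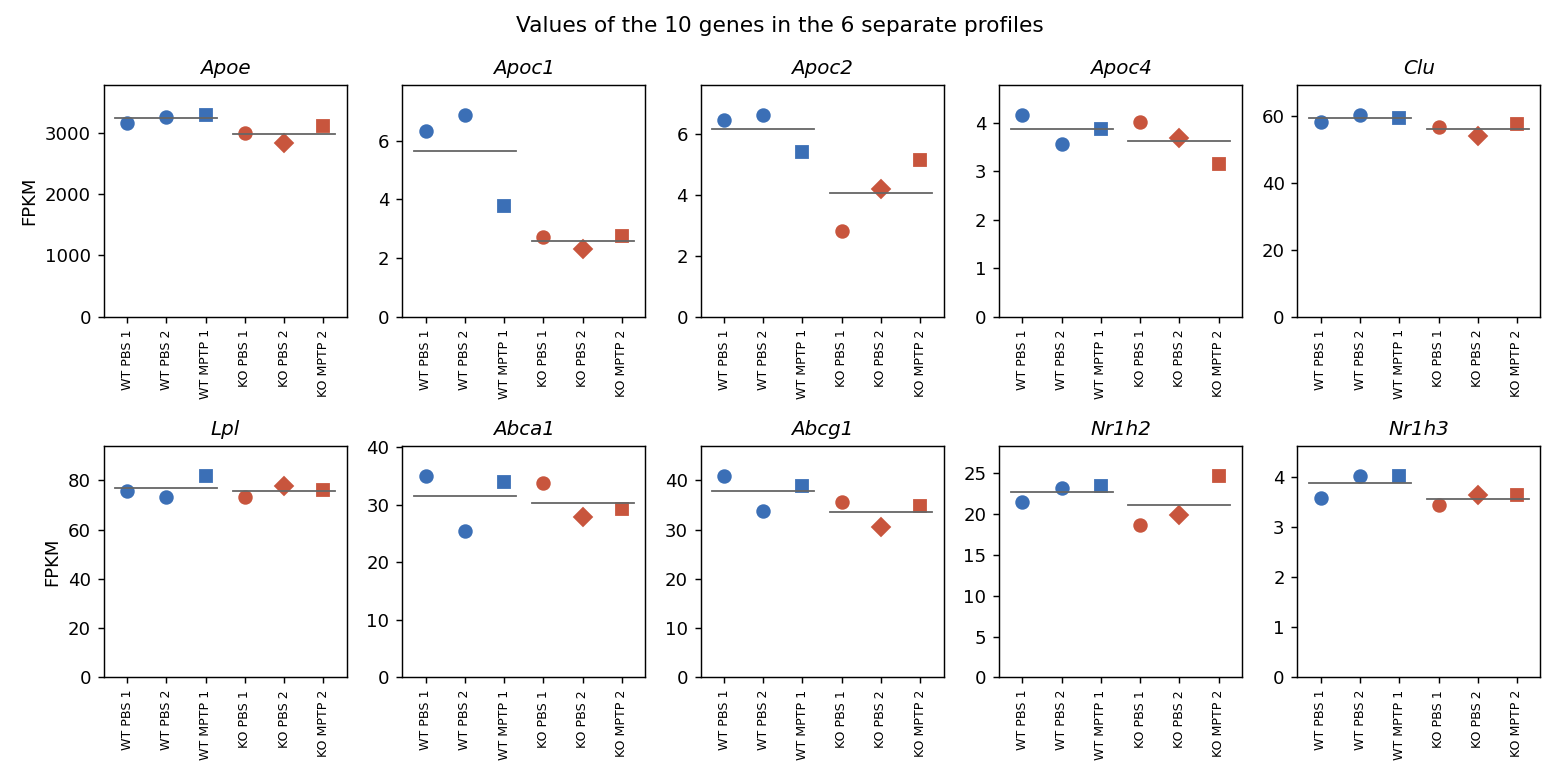
Each panel plots 1 gene in the 6 separate profiles in FPKM on an axis that starts at 0, with WT in blue, KO in red, PBS as circles, MPTP as squares and the profile under 2 labels as a diamond; grey lines are the genotype means. Apoc1 is lower in all 3 KO profiles (2.32 to 2.74) than in all 3 WT profiles (3.78 to 6.88), whereas Lpl and Abca1 overlap between genotypes.

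FPKM, the unit assumed here, is scaled by transcript length, so levels of different genes are set side by side as an approximate order. Each is a sum of deposited rows. Apoe was the 10th most abundant gene of the table, at a mean of 3107 ± 172 FPKM (SD, n = 6 profiles). Lpl followed at 76.2 ± 3.21, Clu at 57.7 ± 2.22, Abcg1 at 35.7 ± 3.69, Abca1 at 30.9 ± 3.88 and Nr1h2 at 21.9 ± 2.30. Lowest were Apoc2 at 5.11 ± 1.43, Apoc1 at 4.13 ± 1.99, Apoc4 at 3.74 ± 0.361 and Nr1h3 at 3.72 ± 0.244. The ranges of Abcg1 and Abca1 overlapped, although Abca1 was below Abcg1 within each of the 6 profiles (ratio 0.754 to 0.948). The ranges of the 4 lowest genes overlapped too, and their order changed between profiles. The coefficient of variation over the 6 profiles was 48.2% for Apoc1 and 28.1% for Apoc2, against a median of 5.59% over all genes tested. It was 12.6% for Abca1, 10.5% for Nr1h2, 10.3% for Abcg1, 9.65% for Apoc4, 6.56% for Nr1h3, 5.55% for Apoe, 4.21% for Lpl and 3.84% for Clu. Apoc1 thus varied more than 99.9% of the genes tested, and Clu more than 16.1% of them.

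Apolipoprotein E binds the LDL receptor family and is the principal lipid carrier of the brain. Apoe was measured at 3159, 3256, 3289, 2997, 2826 and 3112 FPKM. Every KO profile lay below every WT profile, though the lowest WT and the highest KO value were close. Apoe made up 0.725% to 0.791% of the column sum. In the limma fit on log2(FPKM + 1), Apoe differed by 0.04 ± 0.13 (estimate ± SE) between MPTP and PBS in WT and by 0.05 ± 0.16 in KO, with adjusted p-values of 1 and 0.888. KO MPTP lay 0.08 ± 0.16 below WT MPTP (log2 difference -0.08, adjusted p = 1), with a 95% interval of -0.43 to 0.27. Row 7 held 94.5% of the gene's FPKM. Row 10, at 139.78, 213.88, 138.91, 118.59, 115.58 and 106.43, held 4.47%, and in that row too the KO profiles all lay below the WT profiles. What separates rows of a gene is not given in the sources used here.

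Apoc1, Apoc2 and Apoc4 encode small exchangeable apolipoproteins: apolipoprotein C-I hinders uptake of lipoprotein remnants, and apolipoprotein C-II is the cofactor that lipoprotein lipase needs. RefSeq's table for GRCm38.p6 places the genes side by side on chromosome 7 in the order Clptm1, Apoc2, Apoc4, Apoc1, Apoe and Tomm40. Promoter windows, from 250 bases before to 50 bases after the start site, were found for 6 of the 10 genes, Apoc1 not among them. Those of Apoc2 and Apoc4 are shown because the neighbours had different patterns in these data. They come from RefSeq, GRCm38.p6, minus strand, 5′ to 3′, and capitals mark the nuclear receptor core motif AGGTCA.
Apoc2, chr7:19677892-19678191: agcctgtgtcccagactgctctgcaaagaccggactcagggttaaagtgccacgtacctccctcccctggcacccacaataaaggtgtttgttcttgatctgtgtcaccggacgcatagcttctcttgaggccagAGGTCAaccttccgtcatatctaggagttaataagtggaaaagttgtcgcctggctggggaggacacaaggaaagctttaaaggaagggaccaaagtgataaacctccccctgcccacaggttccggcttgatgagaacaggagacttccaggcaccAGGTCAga
Apoc4, chr7:19681411-19681710: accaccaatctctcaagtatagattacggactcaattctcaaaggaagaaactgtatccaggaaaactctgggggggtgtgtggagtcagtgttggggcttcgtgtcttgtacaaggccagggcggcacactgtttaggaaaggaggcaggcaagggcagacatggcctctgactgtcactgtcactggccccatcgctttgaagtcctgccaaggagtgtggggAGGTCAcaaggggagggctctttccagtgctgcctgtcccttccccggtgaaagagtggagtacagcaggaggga
Counted from the start site, Apoc2 had the motif at -115 and at 43, and Apoc4 had it at -25. Of 32851 promoter windows of this length, 16.3% held AGGTCA on either strand. Neither window matched the LXR direct repeat (0.207% of windows), the ERR element TNAAGGTCA (1.28%, which contains AGGTCA), the E-box CACGTG (7.15%) or the NRF1 site (4.6%). All motifs were searched on both strands, and a match describes the letters only.

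Apoc1 was measured at 6.34, 6.88, 3.78, 2.71, 2.32 and 2.74 FPKM. The 2 WT PBS profiles were high, WT MPTP 1 was intermediate and the KO profiles were low, with no overlap between the genotypes. Relative to the WT PBS mean, Apoc1 stood at 57.2% in WT MPTP 1, 41.0% in KO PBS 1, 35.1% in KO PBS 2 and 41.5% in KO MPTP 2. With MPTP in WT, 1 profile against the 2 WT PBS profiles, the log2 difference of Apoc1 was -0.67 ± 0.10. Apoc1 was the 1 gene of the 10 past the limma threshold there, against 0.254% of all genes tested, and nothing is read from that count, since the WT PBS profiles are those of the contrast in which Apoc1 was noticed. It did not pass when either WT PBS profile was left out with KO PBS 2 counted as KO PBS (estimates -0.72 and -0.62) or with the replicate number as a block (-0.68). Nor did it pass with quantile normalization, with no filter, from the highest row of each gene or with genes off the column relations left out. In KO, MPTP and PBS differed by 0.01 ± 0.12. Between genotypes, the log2 difference was -1.04 ± 0.10 under PBS and -0.35 ± 0.12 under MPTP (adjusted p = 0.794 under MPTP). For KO MPTP 2 against WT MPTP 1, the estimate shares no profile with the contrast in which Apoc1 and Apoc2 were first noticed. Its spread, though, was taken from the WT PBS pair, which belongs to that contrast.

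Apoc2 was measured at 6.45, 6.62, 5.42, 2.82, 4.18 and 5.14 FPKM. KO PBS 1 was the lowest, and the highest KO value lay just under the lowest WT value. Against the WT PBS mean it stood at 82.9% in WT MPTP 1, 43.2% in KO PBS 1, 64.0% in KO PBS 2 and 78.7% in KO MPTP 2. With MPTP in KO the log2 difference of Apoc2 was 0.68 ± 0.11. It rests on 1 profile, KO MPTP 2, against 1 profile, KO PBS 1, with the spread taken from the WT PBS pair. Apoc2 was the 1 gene of the 10 past the limma threshold there, against 0.292% of all genes tested. Nothing is read from that count, since KO PBS 1 is the low profile of the contrast in which Apoc2 was noticed. With KO PBS 2 counted as KO PBS the difference was 0.46, and without KO PBS 1, with KO PBS 2 in its place, it was 0.25, and neither passed. Row 1 of Apoc2 held 95.5% of its FPKM, at 6.34, 6.58, 5.42, 2.82, 4.18 and 3.90, and row 2 was at 1.24 in KO MPTP 2 and at 0 in the other 5 profiles. With the highest row of each gene in place of the sum, the MPTP difference in KO was 0.36 and did not pass. Nor did Apoc2 pass with no filter, with quantile normalization, with genes off the column relations left out or with the replicate block. In WT, the MPTP difference was -0.23 ± 0.10. Between genotypes the log2 difference was -0.98 ± 0.10 under PBS and -0.06 ± 0.11 under MPTP, where the 95% interval ran from -0.31 to 0.18. The 2 genes called lower in KO under PBS were Apoc1 and Apoc2, against 0.226% of all genes tested, and this count follows from how they were noticed.

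Apoc4 was measured at 4.16, 3.57, 3.87, 4.02, 3.68 and 3.15 FPKM. KO MPTP 2 was the lowest, and the genotypes overlapped. Apoc4 lies between Apoc2 and Apoc1, yet stood at 100.1% of the WT PBS mean in WT MPTP 1 and 104% in KO PBS 1. In KO MPTP 2, where Apoc2 was close by at 78.7%, Apoc4 was at 81.5%, and in KO PBS 2 it was at 95.2%. Its largest log2 difference, MPTP against PBS in KO, was -0.27 ± 0.12 (adjusted p = 0.543). The ratio of Apoe to Apoc1 in FPKM was 498 and 473 in WT PBS, 870 in WT MPTP 1, and 1106, 1218 and 1136 in the KO profiles, so the ratio varied with Apoc1 while Apoe stayed within a narrow range. Gm44805, annotated across Apoc4 and Apoc2, was at 2.72, 2.31, 1.67, 3.11, 2.16 and 1.74 FPKM. How fragments were divided among it, Apoc2 and Apoc4 is not given in the sources used here, so the levels of the latter are uncertain to that extent. The flanking genes Clptm1 and Tomm40, named for their position, were at 26.69 to 30.65 and 44.68 to 51.65 FPKM.

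**Figure D2:**
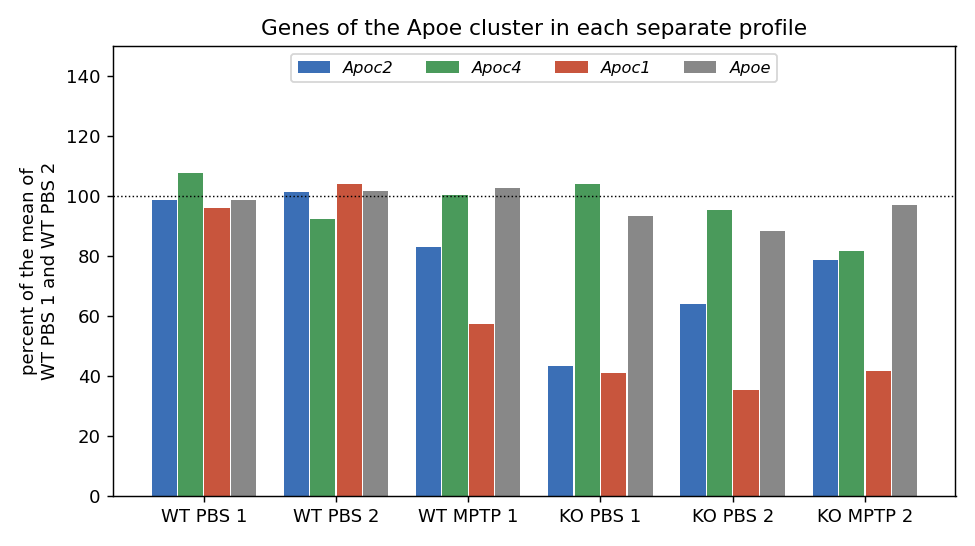
Bars give Apoc2, Apoc4, Apoc1 and Apoe in each separate profile as a percent of the mean of WT PBS 1 and WT PBS 2 (dotted line at 100). Apoc1 lies at 35.1% to 57.2% outside WT PBS, Apoc2 at 43.2% to 82.9%, and Apoe stays between 88.1% and 102.5%.

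Clusterin, encoded by Clu and also called apolipoprotein J, is a secreted chaperone that travels with lipoproteins. Clu was measured at 58.33, 60.28, 59.41, 56.65, 54.03 and 57.78 FPKM. The KO profiles lay below the WT profiles by a margin of under 1 FPKM between the nearest values. In none of the 4 comparisons did Clu pass the limma test. The largest estimate was -0.06 ± 0.08, KO against WT under PBS.

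Lipoprotein lipase, the product of Lpl, cleaves triglycerides of lipoproteins and is activated by apolipoprotein C-II. Lpl was measured at 75.55, 73.34, 81.79, 73.07, 77.51 and 76.02 FPKM. WT MPTP 1 was the highest and the genotypes overlapped. The log2 difference with MPTP was 0.13 ± 0.08 in WT (adjusted p = 1) and 0.06 ± 0.09 in KO (adjusted p = 0.801). Thus Apoc2, a low gene, ranged 2.35-fold in FPKM between its lowest and highest profile, and Lpl, at a higher level, ranged 1.12-fold. Neither protein was measured.

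ABCA1 loads lipid onto free apolipoproteins, and ABCG1 exports sterol to particles that already hold lipid. Abca1 was measured at 35.03, 25.47, 33.89, 33.76, 27.90 and 29.29 FPKM. Abcg1 was measured at 40.88, 33.77, 38.76, 35.60, 30.50 and 34.72 FPKM. Both genes were lower in WT PBS 2 than in WT PBS 1 and lower in KO PBS 2 than in KO PBS 1, and both overlapped between genotypes. The 2 WT PBS profiles, which share a label, differed by -0.44 in log2 for Abca1, a gap exceeded by 0.461% of all genes tested, and by -0.27 for Abcg1, exceeded by 3.43%. The SD of that difference over all genes was 0.131. With MPTP, Abca1 differed by 0.18 ± 0.14 in WT and -0.20 ± 0.17 in KO, and Abcg1 by 0.06 ± 0.11 and -0.04 ± 0.12 (limma adjusted p = 1 for both in WT, 0.680 and 0.908 in KO). The sign depended on 1 profile, with KO PBS 2 counted as KO PBS. For Abca1 in WT the difference was 0.40 without WT PBS 1 and -0.05 without WT PBS 2, and for Abcg1 0.19 and -0.07. In KO, without KO PBS 1, it was 0.07 for Abca1 and 0.18 for Abcg1. KO against WT under MPTP gave -0.20 ± 0.17 for Abca1 and -0.15 ± 0.12 for Abcg1 (adjusted p = 1 for both). For Abca1 the 95% interval of -0.57 to 0.17 spans changes in either direction.

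The promoter of Abca1 is shown because its LXR direct repeat is a textbook site of this pathway. It comes from RefSeq, GRCm38.p6, minus strand, 5′ to 3′. Capitals mark the E-box CACGTG and, read on the opposite strand, the LXR direct repeat.
Abca1, chr4:53159846-53160145: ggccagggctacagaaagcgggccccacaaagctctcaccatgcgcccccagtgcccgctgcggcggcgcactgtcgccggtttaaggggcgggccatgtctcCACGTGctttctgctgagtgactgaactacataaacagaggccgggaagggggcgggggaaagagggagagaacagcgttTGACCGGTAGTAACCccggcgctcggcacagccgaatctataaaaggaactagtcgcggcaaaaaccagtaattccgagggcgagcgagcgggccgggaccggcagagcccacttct
Counted from the start site, the E-box began at -147 and the repeat at -67. The windows found for Apoe, Nr1h2 and Nr1h3 held none of the motifs searched. No match says only that these letters are not in the window.

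Transcript length went along with the gap between the WT PBS profiles. Only genes of at least 10 FPKM on average were used. Among 1598 genes whose longest coding transcript is under 2 kb, the median log2 difference, WT PBS 2 minus WT PBS 1, was 0.07. Among 571 genes over 6 kb it was -0.09. The medians between were 0.01 for 2 to 4 kb and -0.03 for 4 to 6 kb. The longest coding transcript in GENCODE has 10262 bases for Abca1 and 5832 for Abcg1. Those of Apoc1, Apoc2 and Apoc4 have 532, 727 and 538, but these genes average under 10 FPKM and were not among the genes used. Their own differences, in log2(FPKM + 1), were 0.10, 0.03 and -0.18. The part of length in the values of Abca1, Abcg1 and these genes was not tested.

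**Figure D3:**
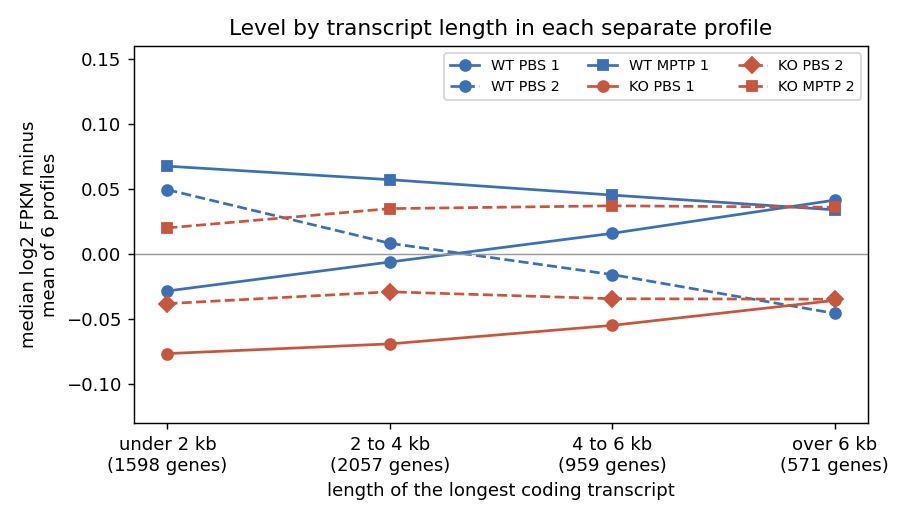
For genes of at least 10 FPKM on average, the median log2 FPKM of each profile minus the mean of the 6 profiles is plotted by the length of the longest coding transcript. WT PBS 1 (blue circles, solid line) goes from -0.03 to 0.04 and WT PBS 2 (blue circles, dashed line) from 0.05 to -0.05 as length goes from under 2 kb to over 6 kb.

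Of the receptors, Nr1h2 was measured at 21.53, 23.23, 23.47, 18.70, 19.85 and 24.67 FPKM. KO PBS 1 and KO PBS 2 were low, and KO MPTP 2 was the highest of all profiles. The log2 difference with MPTP was 0.38 ± 0.10 in KO (limma adjusted p = 0.219) and 0.07 ± 0.08 in WT (adjusted p = 1). Between genotypes it was -0.25 ± 0.08 under PBS and 0.07 ± 0.10 under MPTP (adjusted p = 1 under MPTP). From the highest row of each gene, here row 4, the estimates were 0.95 with MPTP in KO, -0.31 with MPTP in WT and -0.62 and 0.64 for KO against WT under PBS and MPTP, and none passed. Nr1h2 was spread over 15 rows, and their make-up differed between profiles more than their sum did. Row 12 was at 4.53, 5.60, 6.15, 5.10, 4.75 and 1.40 FPKM, which is 21.0% to 27.3% of the gene in 5 profiles and 5.67% in KO MPTP 2. Row 4 was at 5.44, 5.81, 4.34, 3.32, 4.47 and 7.33 FPKM and was highest in KO MPTP 2. Row 18 was at 0.98, 1.34, 1.36, 1.61, 2.14 and 2.32 FPKM, higher in every KO than in every WT profile. Rows of a gene were not tested one by one, and KO MPTP 2 is a single profile.

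**Figure D4:**
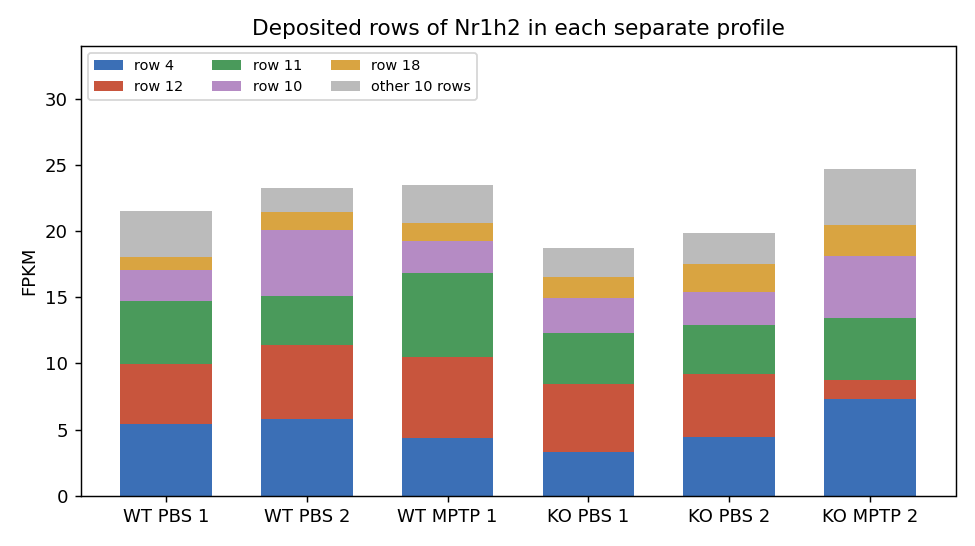
Stacked bars give the deposited rows of Nr1h2 in FPKM in each separate profile, with the 5 highest rows in colour and the other 10 in grey. Row 12 (red) is 1.40 FPKM in KO MPTP 2 and 4.53 to 6.15 FPKM elsewhere, while the sum of all rows is highest in KO MPTP 2.

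Nr1h3 was measured at 3.57, 4.02, 4.02, 3.44, 3.63 and 3.63 FPKM. The genotypes overlapped by a narrow margin. Estimates of its log2 difference lay between -0.12 and 0.07 in the 4 comparisons, and none passed the limma test. Nr1h2 exceeded Nr1h3 by 5.44- to 6.80-fold in FPKM in every profile.

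The median log2 difference of the 10 genes was 0.05 with MPTP in WT, where that of all genes tested was 0.04, and 0.04 with MPTP in KO, where that of all genes was 0.09. For KO against WT it was -0.08 under PBS (all genes -0.06) and -0.11 under MPTP (all genes -0.01). After TMM scaling, which brings the medians of all genes to within 0.01 of 0, the medians of the 10 genes were 0.00, -0.06, -0.01 and -0.11 in the same order. Under MPTP, 9 of the 10 genes had estimates below 0 in KO against WT, as did 53.6% of all genes. None of the 10 passed the limma test there, against 0.103% of all genes, and 1 of the 10, Apoc1, had an unadjusted p below 0.05, against 3.59% of all genes tested. The test of whether the MPTP difference varied with genotype called none of the 10, against 0.0752% of all genes. At an unadjusted p below 0.05 there were 3, Apoc2, Apoc1 and Nr1h2, against 5.17% of all genes. That quantity contains the genotype difference under PBS, through which Apoc1 and Apoc2 were noticed, so nothing is read from it for them. The estimates, as a description, were 0.92 ± 0.15 for Apoc2 (0.58 from the highest row of each gene), 0.68 ± 0.15 for Apoc1 and 0.32 ± 0.13 for Nr1h2.

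**Figure D5:**
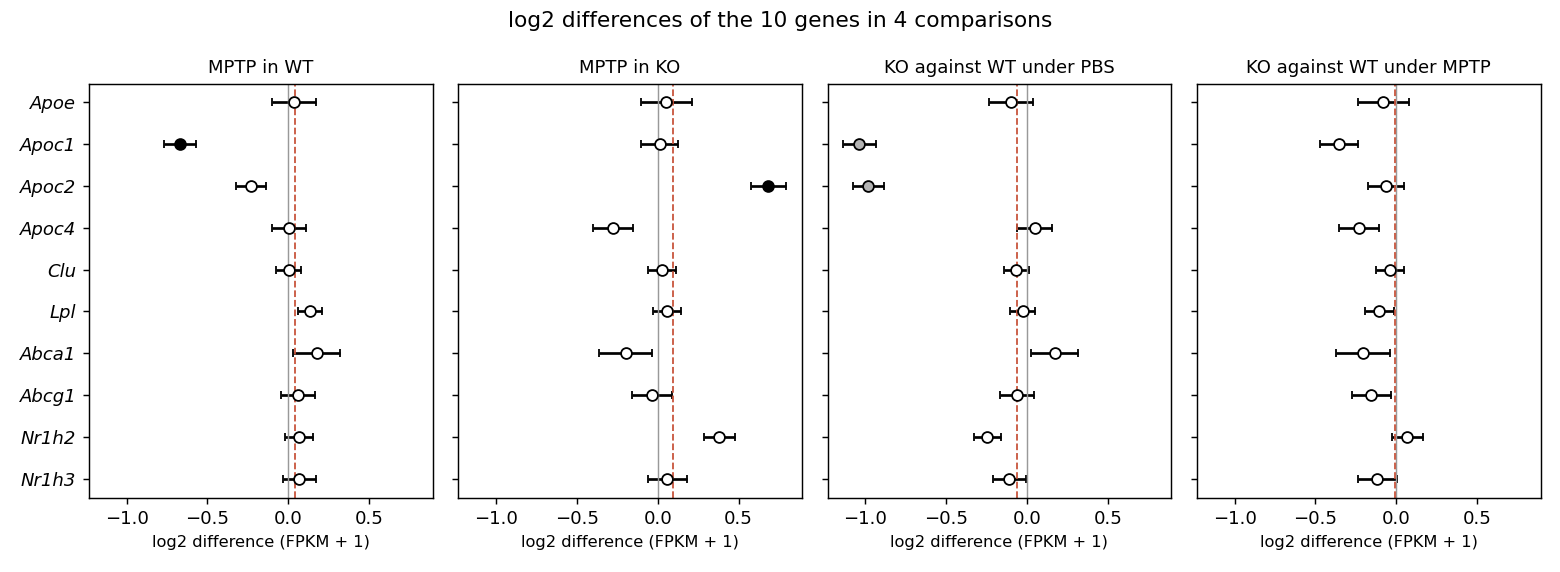
Points are estimated log2 differences of FPKM + 1 for the 10 genes in 4 comparisons, with bars of 1 SE; black points passed an adjusted p of 0.05 but reuse profiles of the contrast that helped choose the genes, grey points passed in that contrast, and open points did not pass. The dashed line is the median of all genes tested. Farthest from it are Apoc1 (-0.67 with MPTP in WT, -1.04 in KO under PBS) and Apoc2 (0.68 with MPTP in KO, -0.98 in KO under PBS). Other points lie off it too, such as Nr1h2 at 0.38 and Apoc4 at -0.27 with MPTP in KO.

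Over the 6 separate profiles, the 3 KO profiles lay below the 3 WT profiles with no overlap for 4 of the 10 genes, Apoe, Apoc1, Apoc2 and Clu, and for 7.23% of all genes tested. None of the 10 lay above without overlap, against 0.828% of all genes. Of the 6 profiles, 4 belong to the contrast in which Apoc1 and Apoc2 were noticed, so the count of 4 is a description and is not read against these shares. The ratio of the KO mean to the WT mean was 0.457 for Apoc1 and 0.657 for Apoc2, and 0.921 for Apoe and 0.946 for Clu, where the median of all genes was 0.979. Column sums were 401734 to 425554 in WT and 388861 to 409278 in KO. With TMM scaling the genes without overlap were Apoe, Apoc1 and Apoc2 (4.75% of all genes, with 4.04% higher in KO), and with quantile normalization Apoc1 and Apoc2 (4.83%, with 3.55% higher). The macrophage markers summed to 2097 to 2161 FPKM in WT and 1873 to 2050 in KO. This sum was lower in every KO profile than in every WT profile. Lyz2 and Cd68, the highest of these markers at means of 1095 and 479 FPKM, were without overlap too. Each of the other markers overlapped between genotypes, and Csf1r was highest in KO MPTP 2, at 121.37. The part of this sum in the values of Apoe and Clu was not tested. With 3 profiles against 3, an exact two-sided permutation test cannot go below 0.1.

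The wider pathway is given as counts beside the shares of all genes called, 0.254% and 0.292% with MPTP in WT and KO, and 0.226% and 0.103% for KO against WT under PBS and MPTP. At such shares a count of 0 in a list of this size says nothing about the list. Of other genes named for apolipoproteins, 5 were tested: Apoa2, Apoo, Apool, the receptor gene Apobr and the RNA-editing enzyme gene Apobec1. Of these, 1 was lower in KO under PBS, Apoa2, a protein of high-density lipoprotein, at 2.82, 3.26, 1.64, 1.37, 1.53 and 1.75 FPKM (log2 difference -0.77 ± 0.10, limma adjusted p = 0.0178). Apoa2 was high in the 2 WT PBS profiles and low in the other 4, and it is a low gene. The lists were chosen with earlier results of these data known, so calls within them are a description. No gene was called in any of the 4 comparisons among 11 lipoprotein receptors and adaptors, 10 lipases and regulators, and 17 genes of cholesterol storage and transport. Among receptors and adaptors the highest were Tyrobp, the signalling adaptor of TREM2, at a mean of 433 FPKM, and Lrpap1, a chaperone of LDL receptor relatives, at 220. Among lipases they were Lipa, the lysosomal acid lipase, at 77.3 and the protease Furin, which cleaves lipoprotein lipase, at 57.8. Among storage genes they were the lysosomal membrane protein gene Lamp1 at 541 and Soat1, which esterifies cholesterol, at 216.

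Among 16 LXR partners and targets, 1 was called, Rxra, the retinoid X receptor alpha that pairs with both LXRs. Rxra fell with MPTP in WT (log2 difference -0.53 ± 0.08, adjusted p = 0.0231) and stood at 34.37, 33.21, 23.09, 31.94, 30.61 and 23.62 FPKM. It was low in both MPTP profiles, and its estimate in KO was -0.42 ± 0.09 (adjusted p = 0.135). Among 13 genes of fatty acid uptake, Acsl1, which activates long-chain fatty acids, was called lower in each of the 4 comparisons (log2 differences -0.54 and -0.83 with MPTP in WT and KO, -0.62 and -0.92 for KO under PBS and MPTP, adjusted p = 0.0178, 0.00418, 0.00871 and 0.00299). Acsl1 stood at 63.21, 61.24, 42.58, 40.14, 40.46 and 22.10 FPKM. Of 4 PPAR and PGC-1 genes tested, Ppard, a fatty acid receptor gene, fell with MPTP in WT (log2 difference -0.64 ± 0.08, adjusted p = 0.0101), and so did the targeted gene Ppargc1a (-0.90 ± 0.10, adjusted p = 0.00472), which was also lower in KO under both treatments (-2.39 ± 0.10 and -1.39 ± 0.12, adjusted p = 3.95e-06 and 0.00148). Rxra, Acsl1, Ppard and Ppargc1a each have a row that departs from the relations between columns, as do 42 genes in all. With those genes left out, most calls over all genes were lost with MPTP in WT and in KO. The same was true for KO against WT under MPTP, and under PBS some calls were lost.

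The genes most like 3 of the members were sought by the root mean square (RMS) difference of centred log2(FPKM + 1) over the 6 profiles, as a description. Nearest to Apoc1 were Ucp2 (RMS difference 0.14), Aarsd1 (0.16), Atp5e (0.17), Atp5h (0.19) and Nfs1 (0.21). Ucp2 encodes a carrier of the inner mitochondrial membrane and has a row that departs from the relations between columns. Atp5e and Atp5h encode subunits of ATP synthase. Of the 5, Aarsd1 stood at 15.52, 16.99, 8.54, 7.11, 8.56 and 8.23 FPKM, high in WT PBS and lower in the other 4 profiles, as Apoc1 was. Nearest to Apoc2 were Cct5, a subunit of the CCT chaperonin (0.15), Hist2h2aa1 (0.16), Slco4a1 (0.18), Apoa2 (0.20) and Dlat (0.20). Cct5 stood at 287.31, 295.38, 201.90, 114.22, 191.40 and 192.93 FPKM, lowest in KO PBS 1 as Apoc2 was. Nearest to Apoe were Ifitm2, Gskip, Pgls, Glipr1 and Glb1, all with RMS differences of 0.0106 to 0.0134. Ifitm2, nearest of these, stood at 197.45, 207.37, 209.81, 190.73, 180.01 and 196.33 FPKM, highest in WT MPTP 1 and lowest in KO PBS 2 as Apoe was.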

How the data were processed

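The authors deposited 1 table of 67355 rows and 12 columns, 1 per labelled sample. CASAVA 1.5, Bowtie 0.12.7, TopHat, Cufflinks and the build mm9 are named, with no role or order, in the submitters' processing notes. No header states a unit, and what the authors deposited is treated as FPKM, fragments scaled by transcript length and library size, because Cufflinks writes FPKM. No interval for counting error is given, since the files do not show the depth.

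Rows were summed per symbol into 21125 genes; 1 cell held text, and its row was left out. A column was called a copy where its rows followed the relation within rounding (0.0101 or 0.00995 FPKM), and 49 of the 67355 rows did not.

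limma 3.58.1 (R 4.3.3) was fitted to log2(FPKM + 1), with a trend of variance on mean, for the 10634 genes with at least 1 FPKM in 3 or more of the 6 separate profiles, so fold changes of low genes are understated. The fit used 5 profiles, without the one under 2 labels, and its spread came from WT PBS 1 and WT PBS 2 (residual degrees of freedom 1, prior 9.01), which the lone profiles of other groups are taken to share. Benjamini-Hochberg adjustment was made over all genes within each comparison, with a threshold of 0.05. The procedure was tested on simulated data.

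The members, lists, fit and alternatives were chosen with earlier results of these data known. Named were all 10 members, the called genes of each list or else its 2 highest, 5 genes most like Apoc1, Apoc2 and Apoe, and the targeted gene. The likeness search skipped olfactory receptors, small RNAs and predicted genes. Alternatives were pseudocounts, filters, scalings, the treatment of copied columns, profiles left out, a replicate block and no trend. Leaving out genes with rows off the relations, the highest row of each gene, and the KO MPTP 1 values for the doubly labelled profile were added after seeing the data. Transcript lengths are GENCODE's, promoters are RefSeq's for GRCm38.p6, and no coordinates of mm9 were used.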

Additional observations from a re-analysis of the deposited data

How the results depend on the processing

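The number of the 10 genes called was 1 for MPTP in WT, 1 for MPTP in KO, 2 for KO against WT under PBS and 0 for KO against WT under MPTP. For MPTP in WT it was 0 with no filter, with a filter of 5 FPKM (Apoc1 was then not tested), with quantile normalization, with genes off the column relations left out and with the highest row of each gene, and 2 (Apoc1 and Lpl) with all 12 columns as libraries. For MPTP in KO it was 0 with no filter, with quantile normalization, with the doubly labelled profile entered under KO PBS or under KO MPTP (either set of values), with 12 columns, with genes off the relations left out and with the highest row. For KO against WT under PBS it was 0 with no filter, quantile normalization and the highest row, 1 (Apoc2) with the filter of 5 FPKM, and 5 with 12 columns. For KO against WT under MPTP it was 5 with 12 columns. Leaving out WT PBS 1, WT PBS 2 or KO PBS 1, with the profile under 2 labels as KO PBS, gave 0 to 1, 0 to 0, 1 to 1 and 0 to 0 genes in that order. The 4 genes without overlap between genotypes became 2 with quantile normalization and 4 to 6 without 1 profile.

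With the replicate number as a block, the counts were 0, 0, 2 and 0. WT PBS and KO PBS alone share 2 numbers that are not copies, the correlation of their replicate differences was 0.227 across genes, and nothing says that the numbers pair samples. Among all genes tested, calls for MPTP in WT ranged from 0 to 43 with separate profiles and reached 2149 with 12 columns; those for MPTP in KO ranged from 0 to 52, for KO against WT under PBS from 0 to 39 (1321 with 12 columns) and under MPTP from 0 to 42 (1539). Of the estimates of single genes under alternatives, 28 were no longer called, 12 were newly called, 27 uncalled ones changed sign by more than 1 SE, and no called one changed sign. The cause was not tested. Read depth is unknown, 3 of the 4 groups rest on 1 profile in the fit, and Apoc1, Apoc2, Apoc4 and Nr1h3 are low genes.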

Other observations

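Of the fatty acid genes on the lists, 3 are named here after their values were seen. Acsl3, which activates fatty acids for lipid droplets, was at 152.71 FPKM in WT PBS 1 and at 17.19, 13.21, 13.04, 12.65 and 12.52 in the other profiles, an 8.88-fold gap between the 2 WT PBS profiles that no other gene tested exceeded on the log2 scale. Slc27a4, a fatty acid transporter gene, was at 8.44 and 8.84 FPKM in WT PBS and 5.58 to 6.00 in the other 4 profiles (log2 difference -0.51 ± 0.09 with MPTP in WT, limma adjusted p = 0.0878). Dgat2, which makes triglyceride, was at 8.68 and 8.91 in WT PBS and 6.66 to 7.25 elsewhere (log2 difference -0.25 ± 0.09 with MPTP in WT, adjusted p = 1). Neither passed the test with MPTP in WT.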
